A study of Drosophila melanogaster with 6 samples.

Results

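INE-1 insertions, the copies of a short repeated DNA element scattered through the fly genome, were followed individually in RNA of larval salivary glands (SGs). They were chosen by name: of the 23932 annotated entries of the expression table, 5578 are transposable elements and 2235 of these carry a name that starts with INE-1. The other 3343 transposable element entries were used for comparison. INE-1, also known as DINE-1, belongs to the Helitron-like DNA elements. Its copies carry no gene for a transposase of their own, most are old and truncated, and they are dense on the small chromosome 4 and beside the centromeres, where much of the DNA is heterochromatin. Many lie inside introns, so RNA assigned to a copy can be part of the unspliced transcript of its host gene as well as RNA begun at the element. In flies, transposable elements are held in check by Piwi-interacting RNAs (piRNAs), mainly in the gonad, by small interfering RNAs in somatic tissue and by heterochromatin proteins.

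The tested larvae were *de2f1b*, mutants for an isoform of the transcription factor gene *E2f1* that is needed for endoreplication in this tissue (4 libraries, replicates 1 to 4). The controls were *w1118*, a laboratory strain with a white-eye mutation (2 libraries, replicates 1 and 4). Each library was made from DNase-treated total RNA of SGs of L3 larvae, whose cells are polyploid and make glue protein. The sources name no allelic combination for the mutant larvae that were sequenced, and control replicates 2 and 3 were not analysed here. The labels call the libraries biological replicates and say no more, so p-values measure the spread between these libraries. The unit is the normalized count, a read count divided by a size factor for the library. Differences between genotypes are log2 fold changes of *de2f1b* over *w1118* on the log2(normalized count + 1) scale, which understates the change of low entries.

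The libraries held between 56495956 and 86202639 reads in *de2f1b* and 78317269 and 94907006 reads in *w1118*, as recovered from the normalized counts. These totals are larger than the depth per library that the methods name, and the gap was not resolved, so the limits below hold as far as the recovered reads do. A read was worth a normalized count of 0.782 to 1.37, and an entry without a read could have had up to 3 reads, or 2.35 to 4.11 depending on the library, as a 95% limit that covers counting error alone. *E2f1* itself averaged 9914 ± 2367 in *de2f1b* and 15605 ± 4329 in *w1118* (SD, n = 4 and 2), with a limma adjusted p of 0.23, and its row sums all isoforms and so does not check the mutation. All 10 SG markers were present in all libraries, with summed levels of 8613710 to 20978910 in *de2f1b* and of 11426637 and 22649465 in *w1118*. RNA of other tissues varied between libraries: the 8 midgut markers summed to 461018, 37.0, 53314 and 206 in *de2f1b* replicates 1 to 4, against 93.4 and 22.0 in *w1118*, and the 8 ring gland markers to 7415, 8661, 17352 and 22961, against 4189 and 6462. In whole-gland RNA, fewer cells of a type and less RNA per cell cannot be told apart.

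Most INE-1 insertions had no assigned read at this depth, and reads from near-identical copies may have been lost in counting. No read was assigned to 1545 of the 2235, and 690 (30.9%) had at least 1 read in any library. Reads were found in all 6 libraries on 116 insertions. The number with a read was 334, 294, 375 and 331 in *de2f1b* replicates 1 to 4, against 279 and 236 in *w1118* replicates 1 and 4, so every mutant library held more such insertions than either control. This was not particular to INE-1. Other transposable elements with a read numbered 914, 833, 1030 and 995 in *de2f1b*, against 828 and 762 in *w1118*. All entries with a read numbered 13426, 12892, 16004 and 14000 in *de2f1b*, against 13127 and 12406 in *w1118*. The control libraries were among the deepest, and the part of depth in these differences was not tested. The filter for testing, a level of 10 or more in 2 or more libraries, was passed by 79 insertions (3.53%), which held 83.4% of the 24085 INE-1 reads. Of these 79, 17 passed through mutant libraries alone and 3 through control libraries alone. The 611 insertions with reads under this filter had a median of 3 reads over the 6 libraries, and 169 of them had a single read.

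Where an insertion lay went with whether it had reads. On chromosome 4, 176 of 344 insertions (51.2%) had a read and 29 (8.43%) passed the filter, against 67 of 361 (18.6%) with a read and 8 past the filter on the X. The autosomal arms 2L, 2R, 3L and 3R lay between these, at 21.8%, 33.8%, 28.6% and 33.1% with a read. Inside introns 456 of 1109 insertions (41.1%) had a read, whereas 31 of 147 insertions that touch an exon (21.1%) and 203 of 979 between genes (20.7%) did. Insertions with a read were longer, with a median of 199 bp against 130 bp for those without a read, and the 79 past the filter had a median of 276 bp. These shares are descriptions without a test.

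**Figure D1:**
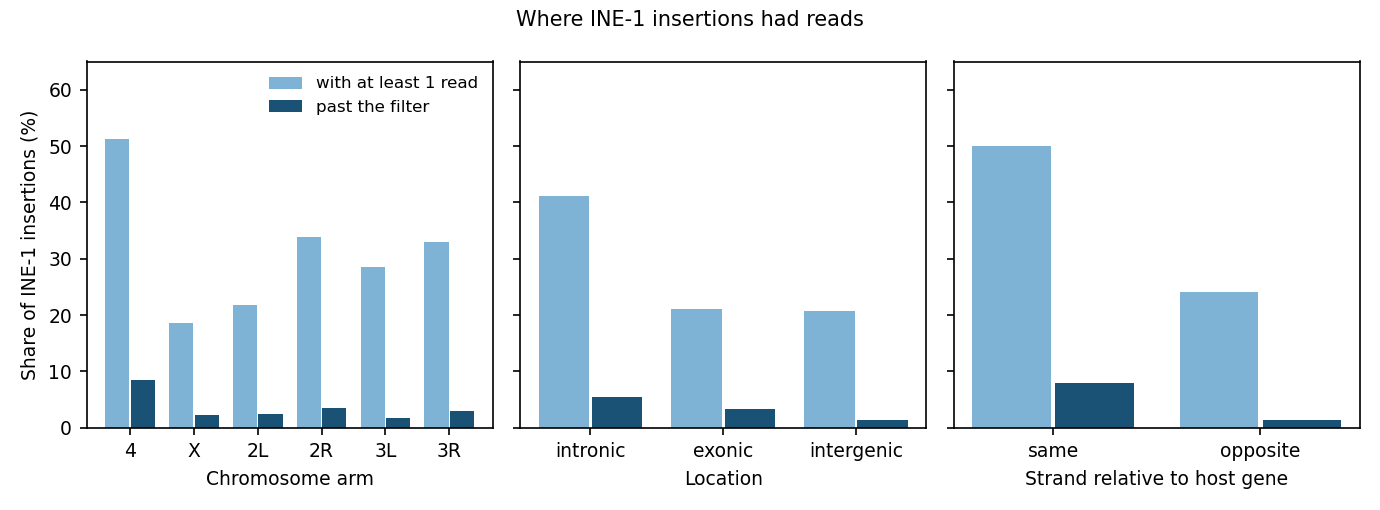
Share of INE-1 insertions (%) with at least 1 read in any of the 6 libraries (light bars) and past the filter (dark bars), by chromosome arm, by location and by strand relative to the host gene. Chromosome 4 stands at 51.2% and insertions on the same strand as their host gene at 50.0%, against 24.1% for those on the opposite strand.

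Strand relative to the host gene separated the insertions further. Of 712 insertions annotated on the same strand as the gene that holds them, 356 (50.0%) had a read and 57 (8.01%) passed the filter. On the opposite strand, 131 of 544 (24.1%) had a read and 8 (1.47%) passed the filter. Insertions on the same strand carried 88.7% of all reads on hosted insertions. The sources used here do not state whether the libraries or the counting kept the strand. Without strand, reads of an element and of the gene around it cannot be told apart. Entries that overlap on opposite strands could hold different counts, however. INE-1{}3111 had 105, 80.8, 55.2 and 55.5 in *de2f1b* replicates 1 to 4. The element 1360{}76, which encloses it on the other strand, had 9.34, 2.74, 10.9 and 0.782 in the same libraries. How the counting separated these entries was not tested.

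The summed normalized count of all INE-1 insertions was 7129, 4333, 4147 and 3089 in *de2f1b* replicates 1 to 4, against 3278 and 2851 in *w1118* replicates 1 and 4. Mutant replicates 1 to 3 lay above both controls, replicate 4 lay between them, and the groups overlapped. The means were 4675 ± 1726 in *de2f1b* and 3064 ± 302 in *w1118* (SD, n = 4 and 2), a log2 ratio of 0.61 or 1.53-fold. Without *de2f1b* replicate 1, the library with the most midgut marker RNA, the log2 ratio was 0.33. When libraries were quantile normalized instead, it was −0.10, so the direction of the sum rests on the scaling. As a share of each library, INE-1 took 94.6, 55.1, 78.3 and 45.8 RPM in *de2f1b*, against 50.2 and 32.8 RPM in *w1118*. All other transposable elements together averaged 26938 ± 6529 in *de2f1b* and 18025 ± 878 in *w1118*, or 1.49-fold. The part of other tissues' RNA in these sums was not tested.

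A single insertion between genes, INE-1{}4698, held 39.2%, 32.8%, 25.5% and 22.1% of the INE-1 sum in the mutant libraries and 26.1% and 32.9% in the controls. This 1001 bp copy (FBti0062759, chromosome 3R, 4605495 to 4606495, minus strand) had 2796, 1420, 1059 and 681 normalized counts in *de2f1b* replicates 1 to 4, against 856 and 939 in *w1118*. Replicate 1 was the highest and replicate 4 the lowest of all libraries, and the log2 fold change was 0.54 ± 0.52 (SE) with a limma adjusted p of 0.567. INE-1{}4431 (FBti0062492, 3R, 4604684 to 4604832, minus strand) lies 663 bp away and had the highest level per length of all INE-1 insertions, a mean of 1328 normalized counts per kb against 1290 for INE-1{}4698. It had 427, 184, 183 and 136 in *de2f1b*, against 131 and 127 in *w1118*. These groups did not overlap, but the lowest mutant library stood just above the controls and the limma adjusted p was 0.434. The nearest gene of both, lncRNA:CR44317, is 4935 bp from INE-1{}4431 and 5746 bp from INE-1{}4698. A copy of another DNA element, 1360{}4545, lies 1287 bp beyond INE-1{}4698 and had 419, 179, 175 and 99.3 in *de2f1b*, against 158 and 130 in *w1118*. All 3 neighbouring elements were highest in the same library, *de2f1b* replicate 1. Without INE-1{}4698 and INE-1{}4431, the INE-1 sum was 3907, 2729, 2906 and 2272 in *de2f1b*, against 2291 and 1785 in *w1118*, with a log2 ratio of 0.54 that became 0.37 without *de2f1b* replicate 1.

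**Figure D2:**
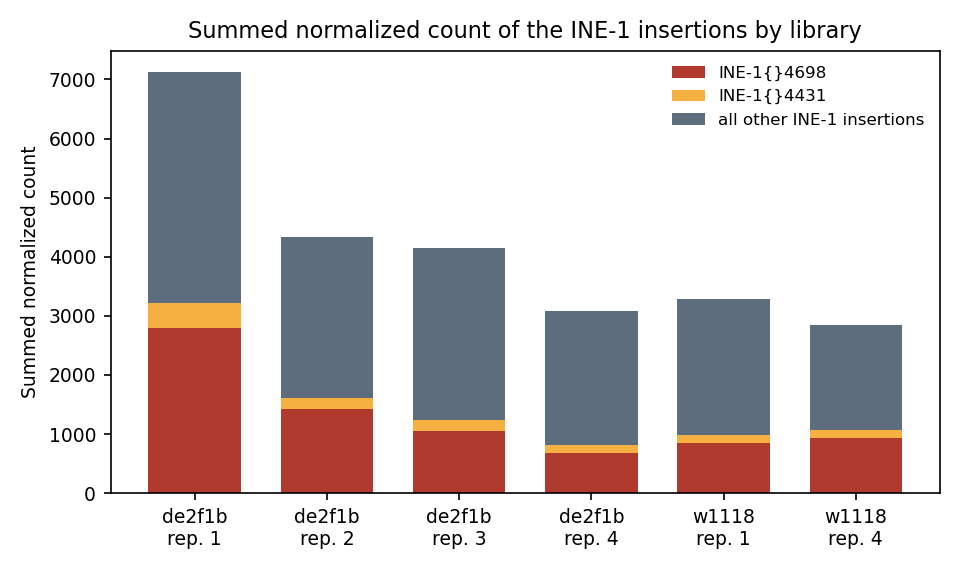
Summed normalized count of the INE-1 insertions in each library, with INE-1{}4698 (red), INE-1{}4431 (yellow) and all other INE-1 insertions (grey) stacked. *de2f1b* replicate 1 reaches 7129, and *de2f1b* replicate 4 at 3089 lies between the *w1118* libraries at 3278 and 2851.

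Between genotypes, 3 INE-1 insertions were higher and 1 was lower in *de2f1b* SGs among the 79 tested (5.06%), by limma with Benjamini-Hochberg adjustment over all 11099 entries tested and an adjusted p under 0.05. Of all entries, 4.24% were called, 3.17% higher and 1.07% lower, so the share called among INE-1 insertions is close to that of the whole table. The other transposable elements had 31 higher and 3 lower of 416 tested (8.17%). At an unadjusted p under 0.05, 10 INE-1 insertions were higher and 5 lower. The median log2 fold change of the 79 was 0.41, with 58 above and 21 below 0, beside 0.02 for all entries and 1.08 for the other transposable elements. Under quantile normalization the median of the 79 was −0.71 with 19 above and 60 below 0, and that of all entries −0.10, so the balance of directions among INE-1 insertions rests on the scaling as well. The groups did not overlap and *de2f1b* was higher for 21 insertions (26.6%, beside 17.4% of all entries), and it was lower for 9 (11.4%, beside 16.0%). The median and these counts include the 17 insertions that passed the filter through mutant libraries alone and the 3 that passed through control libraries alone, whose direction the filter set. Set against the mean of both controls, the median INE-1 difference was 1.11, 0.35, 0.43 and 0.13 on the log2 scale in mutant replicates 1 to 4. Replicate 1 thus stood apart, and replicate 4 was about as far from the control mean as the controls were from each other (0.10 and −0.10).

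The first called insertion, INE-1{}2485 (FBti0060546), begins inside the 5′ UTR of *d4* and runs on into its first intron (chromosome 2R, 5259068 to 5259406, plus strand, the same strand as *d4*), with 157 of its 339 bases in exonic sequence. *d4* encodes a zinc finger protein related to the mammalian DPF chromatin factors. INE-1{}2485 had 81.4, 111, 76.0 and 55.5 normalized counts in *de2f1b* replicates 1 to 4, against 10.8 and 8.25 in *w1118* replicates 1 and 4. Every mutant library lay far above both controls, with a log2 fold change of 2.93 ± 0.46 (SE) and a limma adjusted p of 0.0245. *d4* as a whole had 2047, 2420, 2184 and 2276 in *de2f1b*, against 1630 and 1781 in *w1118*. The *d4* groups did not overlap either, but the log2 fold change was 0.39 and the limma adjusted p 0.183. The log2 ratio of insertion to gene differed between the genotypes by 2.54 and did not overlap.

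INE-1{}2485 was not alone in its stretch of chromosome 2R. INE-1{}2483 (FBti0060544, 5258004 to 5258111, minus strand) lies 893 bp before *d4* and 957 bp from INE-1{}2485. It had 62.7, 101.4, 31.7 and 32.8 in *de2f1b*, against 8.34 and 11.9 in *w1118*, with a log2 fold change of 2.24 and a limma adjusted p of 0.115. On whole reads DESeq2 called INE-1{}2483, at an adjusted p of 0.0202, whereas edgeR gave 0.136. Between both lie fragments of other elements. The gypsy8{}3067 fragment had 36.0, 30.1, 18.1 and 13.3 in *de2f1b*, against 0 and 6.42 in *w1118*, and the Idefix{}3680 fragment 33.3, 19.2, 12.7 and 10.9, against 3.34 and 2.75. Neither passed the test, at limma adjusted p-values of 0.141 and 0.156. Cr1a{}2571, between these fragments, had 36.0, 43.8, 24.4 and 13.3 in *de2f1b*, against 5.0 and 14.7 in *w1118*, where the groups overlapped. The rise that passed the limma test was thus that of INE-1{}2485. Upstream of *d4*, INE-1{}2483 and Cr1a{}2571 also had higher means in *de2f1b*. The gypsy8{}3067 and Idefix{}3680 fragments passed the filter through mutant libraries alone, so the filter set their direction.

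The second, INE-1{}3111 (FBti0061172), is a 521 bp copy on the X (6757567 to 6758087, minus strand) in an intron of *sov*, small ovary, which encodes a zinc finger protein required for heterochromatin and element silencing in the ovary. It points against *sov* and lies wholly within the annotation of another element, 1360{}76. It had 105, 80.8, 55.2 and 55.5 in *de2f1b* replicates 1 to 4, against 5.84 and 11.0 in *w1118*. The lowest mutant library was several times above the higher control, and the log2 fold change was 3.00 ± 0.52 (SE) with a limma adjusted p of 0.0309. 1360{}76, which encloses it, had 9.34, 2.74, 10.9 and 0.782 in *de2f1b*, against 5.0 and 8.25 in *w1118*, and overlapped between the genotypes. On the same strand and 523 bp away, lncRNA:CR43496 went the other way, with 880, 716, 400 and 540 in *de2f1b*, against 1939 and 2271 in *w1118* (log2 fold change −1.79, limma adjusted p = 0.0363). *sov* itself was not analysed here.

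The third, INE-1{}5325 (FBti0063386), is a fragment of 66 bp on the X (920695 to 920760, plus strand) in an intron of 18662 bp of *CG43867*, on the opposite strand. It had 25.3, 17.8, 11.8 and 12.5 in *de2f1b*, against 0 and 0 in *w1118*. The mutant mean of 16.9 was at least 6.13-fold higher than the level that 3 reads would give in the control library where a read was worth most, and the limma adjusted p was 0.0387. *CG43867* had 1016, 966, 1020 and 931 in *de2f1b*, against 1306 and 2338 in *w1118*, with a log2 fold change of −0.83 and a limma adjusted p of 0.122. Element and host gene had opposite signs, but the element passed the filter through mutant libraries alone, so the filter set its direction. The host did not pass the test. With 61 reads over the 6 libraries, INE-1{}5325 was the sparsest of the insertions called.

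The insertion called lower, INE-1{}2086 (FBti0060147, 2R, 5117941 to 5118216, minus strand), lies in an intron of *gus*, gustavus, a SOCS box gene known for binding the germline protein Vasa. It had 13.3, 17.8, 21.7 and 21.1 normalized counts in *de2f1b* replicates 1 to 4, against 97.6 and 84.3 in *w1118*. The groups were far apart and the mutant libraries close together, with a log2 fold change of −2.26 ± 0.46 (SE) and a limma adjusted p of 0.0486. Its neighbour INE-1{}2087 (FBti0060148, 5119303 to 5119554) sits in the same intron on the same strand, 1087 bp away, and had 128, 101.4, 102.2 and 71.9 in *de2f1b*, against 121 and 76.1 in *w1118* (log2 fold change 0.04, limma adjusted p = 0.96). INE-1{}2912 and INE-1{}2917, also in *gus*, had log2 fold changes of 0.11 and 0.18. *gus* had 4678, 4319, 3700 and 3606 in *de2f1b*, against 4469 and 4734 in *w1118* (log2 fold change −0.18, limma adjusted p = 0.522). Of the 4 tested insertions in this gene, the fall was thus that of INE-1{}2086, and the difference between it and its neighbours was not tested.

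**Figure D3:**
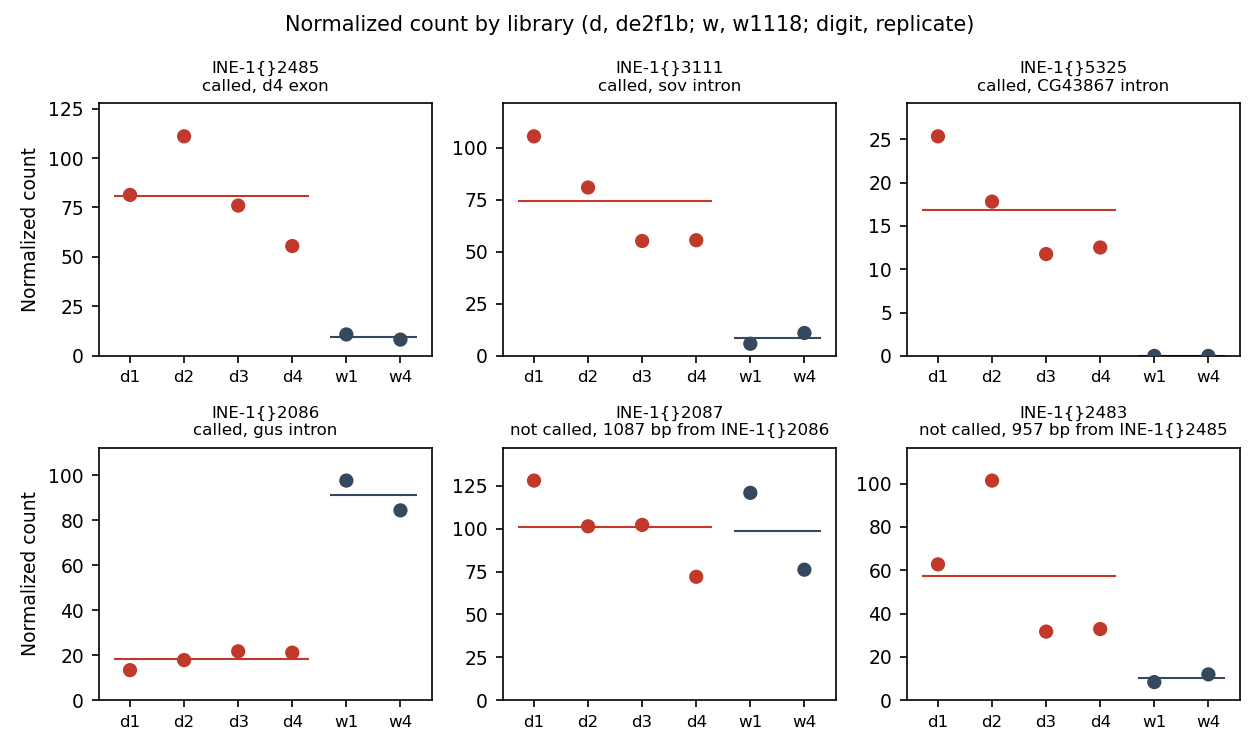
Normalized count of the 4 called INE-1 insertions and of 2 of their neighbours in each library (points, *de2f1b* replicates 1 to 4 in red and *w1118* replicates 1 and 4 in blue, horizontal lines the group means). INE-1{}5325 had no read in either *w1118* library, and INE-1{}2087, in the same *gus* intron as INE-1{}2086, overlaps between the genotypes.

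These 4 calls were close to the threshold in limma and edgeR. With each library left out in turn, INE-1{}2485 stayed under an adjusted p of 0.05 in 2 of 6 fits, INE-1{}3111 in 1 of 6, and INE-1{}5325 and INE-1{}2086 in 0 of 6, while the direction of all 4 was kept in every fit. The edgeR quasi-likelihood test on whole reads called INE-1{}5325 of these, at an adjusted p of 0.0481, and gave 0.0512, 0.0607 and 0.0619 for INE-1{}2485, INE-1{}3111 and INE-1{}2086. DESeq2 on the same reads called all 4, at adjusted p-values of 8.7e-06 for INE-1{}2485, 5.8e-05 for INE-1{}3111, 0.00324 for INE-1{}5325 and 0.000357 for INE-1{}2086.

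Among the insertions that did not pass the test, several had groups far apart. INE-1{}3227, in an intron of *nrm*, neuromusculin, a cell adhesion gene of the immunoglobulin superfamily, had 21.3, 19.2, 49.7 and 22.7 in *de2f1b*, against 4.17 and 0 in *w1118* (limma adjusted p = 0.0841). INE-1{}3083 and INE-1{}3086 lie in introns of *l(1)G0196*, which encodes an inositol phosphate kinase, and both had lower values in the mutant. INE-1{}3083 had 16.0, 21.9, 9.04 and 11.7 in *de2f1b*, against 49.2 and 79.7 in *w1118*, and INE-1{}3086 had 6.67, 0, 4.52 and 7.04, against 25.8 and 12.8. Their limma adjusted p-values were 0.108 and 0.312, and that of their host gene, at a log2 fold change of −0.69, was 0.191. INE-1{}5330, between genes on 2L, had 16.0, 19.2, 15.4 and 19.5 in *de2f1b*, against 5.0 and 2.75 in *w1118* (limma adjusted p = 0.142). These insertions were picked after their values were seen. INE-1{}3227 and INE-1{}5330 passed the filter through mutant libraries alone and INE-1{}3086 through control libraries alone, so the filter set their direction.

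A gene held 65 of the 79 tested insertions, and for 63 of them the host gene was itself tested (45 genes). Over these 63 insertions the log2 fold changes of insertion and host were related, with a Pearson correlation of 0.61 and a Spearman rank correlation of 0.46, and with r = 0.65 over the 45 genes when insertions of a gene were averaged. This is a correlation across insertions, which share libraries, and it is given as a description. It includes insertions that passed the filter through libraries of a single genotype, whose direction the filter set. The sign was that of the host for 38 of 63. Per length, an insertion had a median of 8.19% of the level of its host's exons, and 3 insertions were above the exons of their host. In 11 of the 63 insertions the insertion-to-host ratio was higher in all *de2f1b* libraries than in both *w1118* libraries. In 6 it was lower in all of them. This ratio has no share over all entries to set beside these counts, so they are a description. Both counts include insertions that passed the filter through a single genotype, among them INE-1{}5325 and INE-1{}3227 (higher) and INE-1{}1753 (lower).

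The clearest cases of shared direction were genes called in the same fit. Of the 45 hosts, 7 were called (15.6%, beside 4.24% of all entries), and 8 of their 9 tested insertions had the sign of the host. INE-1{}3938 and INE-1{}3227 passed the filter through mutant libraries alone and INE-1{}1753 through control libraries alone, so the filter set their direction. Their hosts entered the set of 45 through these insertions, so the share of hosts called and the count of shared signs both carry this selection. INE-1{}3938 (chromosome 4, 1127678 to 1128075) lies in an intron of *CG11155*, an ionotropic glutamate receptor gene that had 2318, 1577, 2243 and 1695 in *de2f1b*, against 320 and 179 in *w1118* (log2 fold change 3.01, limma adjusted p = 0.00501). The insertion had 36.0, 24.7, 24.4 and 18.0 in *de2f1b*, against 1.67 and 2.75 in *w1118* (log2 fold change 3.04, limma adjusted p = 0.0505), so that insertion and host had nearly equal log2 fold changes. *nrm*, the host of INE-1{}3227, was higher in *de2f1b* (log2 fold change 2.39, limma adjusted p = 0.0182). *Cda5*, a chitin deacetylase-like gene, was lower, with 2322, 2079, 1129 and 923 in *de2f1b*, against 7191 and 11570 in *w1118*, and its insertion INE-1{}1753 had 4.00, 1.37, 0.904 and 0 in *de2f1b*, against 19.2 and 28.4 in *w1118*. *conu*, conundrum, was also lower (log2 fold change −2.83, limma adjusted p = 0.0352), and INE-1{}4388 in its intron had 13.3, 8.22, 1.81 and 10.9 in *de2f1b*, against 51.7 and 31.2 in *w1118*.

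The other called hosts gave weaker or mixed pictures. *Cadps*, a gene of regulated secretion, was higher in *de2f1b* at a log2 fold change of 0.90 (limma adjusted p = 0.0376). Its insertion INE-1{}3976, on the opposite strand, had 36.0, 39.7, 37.1 and 17.2 in *de2f1b*, against 5.0 and 11.9 in *w1118*, and INE-1{}3979, on the same strand, had 116, 178, 108 and 114.95, against 113 and 59.6, where the groups overlapped. *apolpp*, the lipoprotein gene of the fat body, was higher at a log2 fold change of 1.54 (limma adjusted p = 0.043), while INE-1{}3410 in its intron overlapped between the genotypes at 24.0, 13.7, 14.5 and 18.8 in *de2f1b* and 14.2 and 6.42 in *w1118*. The 8 fat body markers, which include *apolpp*, summed to 3102669 to 6073235 in *de2f1b* and to 4487368 and 4886621 in *w1118*. *crc*, the fly ATF4 gene, was higher at a log2 fold change of 0.76 (limma adjusted p = 0.033). INE-1{}4067 in *crc* had 17.3, 15.1, 12.7 and 12.5 in *de2f1b*, against 9.17 and 11.9 in *w1118*, but INE-1{}4069, in another *crc* intron, had 5.34, 12.3, 9.95 and 7.82, against 18.3 and 23.8. This copy is the exception among the 9, with values lower in the mutant inside a gene that rose.

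**Figure D4:**
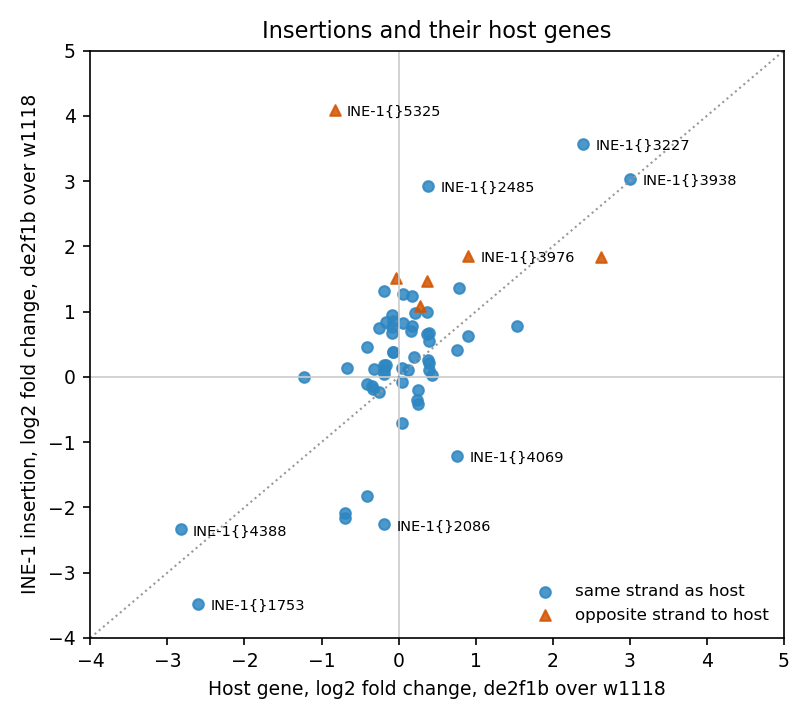
Log2 fold change (*de2f1b* over *w1118*) of 63 INE-1 insertions against that of the gene that holds each, with insertions on the same strand as the host as circles, those on the opposite strand as triangles and the line of equal change dotted. INE-1{}5325, INE-1{}2485, INE-1{}2086 and INE-1{}4069 lie away from the line, and the plotted value of INE-1{}5325 depends on the pseudocount since both *w1118* libraries were at 0.

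On the opposite strand to their host lay 8 tested insertions. Of these, 4 passed the filter through mutant libraries alone (INE-1{}5325, INE-1{}6160, INE-1{}3380 and INE-1{}3019), so that their positive sign was set by the filter. The other 4 also had a positive log2 fold change and did not overlap between the groups, as 17.4% of all entries did upward. Under quantile normalization 6 of the 8 were positive. Besides the called INE-1{}3111 and INE-1{}5325, they were INE-1{}3976 in *Cadps*, INE-1{}6123 in *CG42748*, which touches an exon of lncRNA:CR43241, INE-1{}6160 in *DIP-beta*, INE-1{}3380 in *CG11076*, INE-1{}4495 in *Grd* and INE-1{}3019 touching an exon of *CG12581*. INE-1{}4495 had 90.7, 50.7, 36.2 and 36.0 in *de2f1b*, against 25.8 and 27.5 in *w1118*, and INE-1{}6123 had 29.3, 35.6, 27.1 and 22.7, against 10.01 and 16.5. Of the 57 insertions on the same strand, 9 passed through mutant libraries alone, and of the other 48, 32 had a positive log2 fold change, 5 did not overlap upward and 7 did not overlap downward. The difference between the strands was not tested. In *Grd*, a GABA receptor-like gene, the host was under the filter, and in *DIP-beta*, an immunoglobulin gene of neurons, the insertion stood above the exons of its host per length.

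Where a gene held several tested insertions, these could differ among themselves. In 13 genes with 2 or more tested copies (31 insertions), 4 genes, *Slip1*, *alpha-Cat*, *crc* and *gus*, held copies of both signs. All 4 copies in *CaMKII*, a calcium-dependent kinase gene on chromosome 4, had log2 fold changes between 0.11 and 0.67, and its own was 0.40 (limma adjusted p = 0.235). The 3 copies in *ZnT41F*, a zinc transporter gene, had 0.68 to 0.95 while the gene had −0.09. INE-1{}1944 and INE-1{}1945 lie 621 bp apart in the same intron of *Slip1*, a gene named for binding the Slowpoke channel, and were among the highest per length with means of 312 and 433 normalized counts per kb. INE-1{}1944 had 52.0, 20.5, 43.4 and 37.5 in *de2f1b*, against 40.9 and 26.6 in *w1118*, and INE-1{}1945 had 78.7, 39.7, 39.8 and 39.1, against 53.4 and 45.8. *Slip1* had nearly the same level in all libraries, with 2969, 2640, 2775 and 2871 in *de2f1b*, against 2717 and 2717 in *w1118*.

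The remaining insertions that were high per length likewise overlapped between the genotypes. INE-1{}1943 (chromosome 4, 662317 to 662424), in an intron of *CG46466*, had a mean of 585 normalized counts per kb and 72.0, 65.8, 66.0 and 62.6 in *de2f1b*, against 74.2 and 38.5 in *w1118*. Per length it stood at 98.3% of the exons of its host. INE-1{}4196 in *Lamp1*, a lysosomal membrane protein gene, had 38.7, 23.3, 14.5 and 18.0 in *de2f1b*, against 38.4 and 34.8 in *w1118* (log2 fold change −0.70, limma adjusted p = 0.492). INE-1{}2441, between genes and 570 bp from *Atf6*, an ER stress sensor gene, had 22.7, 9.59, 9.04 and 7.04, against 12.5 and 17.4.

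Chromosome 4 held 29 of the 79 tested insertions and 28.9% of all INE-1 reads. Of these 29, 24 lay in 16 host genes and 22 had a positive log2 fold change, with a median of 0.56 that became −0.52 under quantile normalization. In 7 the *de2f1b* libraries lay above both controls (24.1%, beside 17.4% of all entries) and in 1 below both (3.45%, beside 16.0%), and 4 of the 29 passed the filter through mutant libraries alone. Limma called 0 of them, beside 4.24% of all entries, with 3 higher and 0 lower at an unadjusted p under 0.05. On whole reads edgeR called 0 and DESeq2 1, higher in *de2f1b*, with no share of all entries given for either tool. The 96 tested genes of chromosome 4 had a median of 0.45, with 32 above and 5 below without overlap, and the 32 other transposable elements there a median of 0.67, with 10 and 3. The median of the INE-1 copies lay between both, with no test of the differences, and under quantile normalization it was below both, which were then 0.23 and −0.34. INE-1{}5918 lies in an intron of *CaMKI*, a calcium-dependent kinase gene, and is 1 of the 7 copies above both controls. It had 120, 52.1, 55.2 and 65.7 in *de2f1b*, against 41.7 and 33.9 in *w1118* (log2 fold change 0.86, limma adjusted p = 0.343). This example was picked after its values were seen, and *CaMKI* had a log2 fold change of −0.08.

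Of 42 genes of small RNA pathways and chromatin, called the silencing list here, 41 passed the filter. The list also holds broader chromatin genes, such as *Mi-2* and the chromosome 4 regulator *Pof*. Of the 41 genes, 2 were called higher and 0 lower in *de2f1b* (limma, adjusted p under 0.05), beside 3.17% higher and 1.07% lower of all entries. At an unadjusted p under 0.05, 11 were higher and 2 lower, beside 12.5% and 9.09% of all entries. On whole reads edgeR called 1 higher and 0 lower, and DESeq2 8 and 1. The shares of all entries that edgeR and DESeq2 called are not given here, so these counts cannot be set beside the limma shares. *moon*, moonshiner, which starts transcription of piRNA clusters in the germline, had 111, 49.3, 87.7 and 74.3 in *de2f1b*, against 5.0 and 0 in *w1118* (log2 fold change 5.0, adjusted p = 0.0269). *Gasz*, a mitochondrial piRNA biogenesis factor, had 600, 529, 536 and 500, against 256 and 263 (log2 fold change 1.05, adjusted p = 0.0336). The groups did not overlap for 13 genes that were higher and 5 that were lower, beside 17.4% and 16.0% of all entries, and the median log2 fold change was 0.35. Among these 13, *aub*, *vas*, *tej*, *krimp*, *rhi*, *BoYb* and the called *moon* passed the filter through mutant libraries alone, so the filter set their direction. The median and the counts of genes that were higher include them. Several germline members had their highest value in *de2f1b* replicate 3, among them *vas* with 13.3, 15.1, 74.2 and 5.47 in *de2f1b*, against 3.34 and 0.917 in *w1118*. That library also had the highest summed testis markers, with 263, 270, 3734 and 192 in *de2f1b*, against 113 and 114 in *w1118*, and *dj*, *Mst84Da* and *sa* at 0 in both controls. The part of germline RNA in these values was not tested. The somatic genes *AGO2*, the effector of small interfering RNAs, and the gene of heterochromatin protein HP1a gave log2 fold changes of −0.54 and −0.28 with limma adjusted p-values of 0.233 and 0.438. Other small interfering RNA and heterochromatin genes of the list went both ways. *r2d2* and *Su(var)3-9* had −0.50 and −0.84 (limma adjusted p = 0.132 and 0.214). *Dcr-2* and *HP4* had 0.35 and 0.52 (limma adjusted p = 0.325 and 0.384).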

How the data were processed

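RNA from SGs was sequenced in 4 *de2f1b* and 2 *w1118* libraries, grouped by the labels. The authors checked reads with FastQC 0.11.8, aligned them with STAR 2.7.6a, counted them with featureCounts 1.6.0 on annotation release 102, and used DESeq2 (version not given in the sources used here) for their comparison. The submitters' processing notes name the build BDGP6. The authors describe the deposited table as normalized to library size, and its values are a signal: reads on an entry, scaled by the size factor of the library. Library preparation for strand or poly(A), and the handling of reads that map to several copies or to overlapping entries, are not given in the sources used here. Reads from near-identical INE-1 copies may thus be split among them or lost. The authors' own comparison columns (mean, log2 fold change, its standard error, test statistic, p-values and shrunken fold change) were not used.

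Dividing by the smallest step of a library gave whole reads for 100% of values, at a tolerance of 0.001. The 11099 entries with a level of 10 or more in 2 or more libraries were tested with limma 3.58.1 (R 4.3.3) on log2(normalized count + 1) in all 6 libraries. The model held genotype alone, with an intensity trend. Tests were two-sided, adjusted by Benjamini-Hochberg and called at an adjusted p under 0.05. The scripts were tested on simulated data. On the recovered reads edgeR 4.0.16 called 1 INE-1 insertion and DESeq2 1.42.0 called 8. The shares of all entries that these tools called are not given here, and the shares of all entries called are those of limma. Other alternatives were pseudocounts of 0.5 and 10, no filter, a mean of at least 100, rescaling to the same total, by median of ratios or by quantiles, robust eBayes or no trend in limma, a block by replicate number, and leaving out libraries. Positions, strands and host genes (genes whose span holds the insertion) came from the Ensembl annotation of BDGP6.54, release 115. No genome sequence was used. Insertions named are all that were called, the 10 with the highest mean normalized count per kb, their host or nearest genes, *E2f1* and called genes of the silencing list; others were named after their values were seen. The members and the lists were chosen with earlier results of these data known. Python 3.11.15, pandas 2.3.3, NumPy 2.4.6 and Matplotlib 3.10.9 were used for the rest.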

Additional observations from a re-analysis of the deposited data

Results flagged for a closer look

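In the 4 *de2f1b* libraries, the highest or lowest value stood apart from the others for 4 of 24 quantities examined (the gap to the nearest value, as a ratio to the whole range on the log2 scale, was above Dixon's 95% critical value for 4 samples). Chance flags about 5% of such groups, or 1.2 of 24. For the reads on all entries the ratio was 0.916, since replicate 4 was the deepest of the mutant libraries. INE-1{}1945 in *Slip1* had a ratio of 0.975, with 78.7 normalized counts in replicate 1 and 39.1 to 39.8 in the other mutant libraries. INE-1{}3979 in *Cadps* had a ratio of 0.851, with 178 in replicate 2. INE-1{}3976, also in *Cadps*, had a ratio of 0.881, with 17.2 in replicate 4, the lowest of the mutant libraries.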

How the results depend on the processing

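The count of INE-1 insertions called higher, 3, was 0 with no filter on low values (690 tested, 19 higher at an unadjusted p under 0.05), with a mean of at least 100 (4 tested), under quantile normalization and in a fit with a replicate block, 1 with edgeR, 6 with DESeq2 and 6 with limma without the trend. With each library left out in turn it was 0 to 2, and it was 0 without *de2f1b* replicate 1 or 2 or without either control. The count called lower, 1, was 0 with no filter, with a mean of at least 100, with libraries at the same total, with robust eBayes, with the block, with edgeR, and with each library left out (0 to 0), and 2 with DESeq2. Without *de2f1b* replicates 3 and 4 together, the libraries with the most ring gland marker RNA and an alternative chosen after seeing the data, 2 were higher and 0 lower. The median log2 fold change of the 79, 0.41, was −0.71 under quantile normalization, and with a library left out it was 0.27 to 0.73. The log2 ratio of the INE-1 sums, 0.61, was −0.10 under quantile normalization and −0.18 when all entries including those at 0 were so normalized, also chosen after seeing the data. With a library left out it was 0.33 (without *de2f1b* replicate 1) to 0.76. Rescaling to the same total moved the median of all entries to 0.17, and the INE-1 median to 0.56. Between libraries that share replicate number 1 or 4, the correlations of deviations were −0.32 and −0.36. With 2 controls, their deviations from the control mean mirror each other, so this check cannot decide whether the numbers pair the libraries. Of the 14 insertions named by rule, 8 kept their sign under every alternative, the 4 called among them, and the other 6, none called, changed sign under at least 1. Without a control the remaining control is assumed to vary like the mutant libraries. With 2 controls and 79 of 2235 insertions past the filter, most copies were too thinly covered for a comparison.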
